A study of Mus musculus with 44 samples.

Results

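The 10 genes described here encode proteins that bind AU-rich or stem-loop elements in the 3′ UTR of short-lived mRNAs. They were chosen by name (Zfp36, Zfp36l1, Zfp36l2, Elavl1, Hnrnpd, Khsrp, Tia1, Tial1, Rc3h1 and Zc3h12a), and all 10 were found among the 29720 genes of each count table. The rule uses no measured values, but the members were chosen with earlier results of these data known. AU-rich elements are runs of AUUUA pentamers in the 3′ UTRs of cytokine, chemokine and early response mRNAs. The tristetraprolin family (Zfp36, Zfp36l1, Zfp36l2) and KSRP (Khsrp) bring deadenylases and exonucleases to such mRNAs, HuR (Elavl1) stabilises them, AUF1 (Hnrnpd) does either depending on its isoform, and TIA-1 and TIAR (Tia1, Tial1) repress their translation. Roquin-1 (Rc3h1) and Regnase-1 (Zc3h12a) act on stem-loops in immune mRNAs, the first through deadenylation and the second by cutting them. The kinase MK2, which p38 activates, phosphorylates tristetraprolin and so prevents it from destroying target mRNAs such as Tnf, and mice without tristetraprolin develop an inflammatory disease driven by TNF.

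Poly-A selected RNA of mouse intestine (C57BL/6) was sequenced in 44 libraries of 2 models, after 2 doses of the oral MK2 inhibitor ATI-450 at 3 mg/kg or of vehicle (methylcellulose and Tween20 in PBS), given 16 h apart, with tissue taken 90 min after the second dose. The series also gives a treatment time of 24 h for all groups, and how it relates to these dosing times is not stated. In the T cell transfer model all mice were Rag1 null, and so without mature T and B cells of their own. Those given 400000 naive T cells developed colitis within 8 to 12 weeks (6 vehicle and 6 inhibitor libraries), and those given 200000 bulk T cells served as non-inflamed controls (5 vehicle and 6 inhibitor). In the Tnf model, inflamed Tnf ΔARE/+ mice, 1 of whose Tnf alleles has lost the AU-rich element in all cells (5 vehicle and 6 inhibitor), were compared with Tnf +/+ littermates (5 and 5), randomized at 16 weeks of age. The p-values measure the spread between libraries, taken here as single animals, which the labels do not state outright.

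Total counts ran from 5.95 to 22.35 M (M, 1e6 counts) per transfer library and from 5.80 to 13.11 M per Tnf library. The libraries carried the batch numbers 1, 3 and 4 (transfer) and 2 and 3 (Tnf), and these were unevenly spread over the groups. The labelled tissue, intestine, was checked against markers: 22 of 23 transfer libraries held the distal colon gene Hoxb13 at 102 CPM (counts per 1e6) or more. The inflamed vehicle library 3 of the transfer model held it at 0.0767 CPM, with small intestinal enterocyte markers summing to 39068 CPM. The Tnf libraries held Hoxb13 at no more than 0.926 CPM and those enterocyte markers at 6705 CPM or more. B and plasma cell markers summed to at most 3.71 CPM in the Rag1 null mice and to at least 369 CPM in the Tnf model. Pancreatic acinar markers exceeded 1000 CPM in 4 inflamed transfer libraries. Fold changes and counts called in that model are therefore given with and without those libraries and library 3 where this changed a call. Correlations between genes were computed on all 23 transfer libraries and not repeated without them.

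The sequence the proteins read is shown first, because the Tnf model rests on its loss and because several of the genes carry it themselves. In the 3′ UTR of the principal GENCODE M21 transcript of every protein-coding gene (GRCm38), the heptamer TATTTAT, the core recognised by tristetraprolin, was searched on the transcribed strand, with overlapping copies counted and each copy also holding an ATTTA. It occurred in 26.1% of 20756 UTRs, and ATTTA in 62.7%. Tnf held 8 TATTTAT copies in 764 bases, a number reached by 0.086% of UTRs within 20% of its length. Among the 10 genes, 7 held at least 1 copy and all 10 held ATTTA. The 26.1% and 62.7% cover UTRs of all lengths, with a median of 846 bases. UTRs within 20% of a member's length held a TATTTAT in 19.8% (Zfp36) to 79.2% (Rc3h1) of cases. They held at least as many ATTTA as the member in 4.5% (Elavl1) to 87.4% (Khsrp). Elavl1 held 8 copies in 4218 bases (0.241% of UTRs of like length held as many), and Zfp36 held 3 in 774 bases (1.27%). Zfp36l1 and Zfp36l2 held 3 each, in 1835 and 1822 bases (4.21% and 4.20%). Rc3h1 held 2 in 7181 bases (48.6%), and Tia1 and Tial1 held 1 each (53.8% and 51.1%). Hnrnpd, Khsrp and Zc3h12a held none, and no match says only that these letters were not found in that UTR. The 30-base window richest in the heptamer is printed for Tnf and for the 4 genes with 3 or more copies, 5′ to 3′ as DNA letters on the minus strand, with each TATTTAT in capitals (overlapping copies run together). The windows lie at chr17:35199678-35199707 for Tnf, chr7:28376962-28376991 for Zfp36, chr12:80108433-80108462 for Zfp36l1, chr17:84184925-84184954 for Zfp36l2 and chr8:4285777-4285806 for Elavl1.

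Tnf: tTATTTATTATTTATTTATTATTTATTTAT

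Elavl1: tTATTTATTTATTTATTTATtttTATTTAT

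Zfp36: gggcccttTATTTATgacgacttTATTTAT

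Zfp36l1: agcttatttaacttatcaaaacgTATTTAT

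Zfp36l2: tcaatatgaaaaactatttaactTATTTAT

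The Tnf and Elavl1 windows each held 5 copies, the Zfp36 window held 2 separate copies, and the Zfp36l1 and Zfp36l2 windows held 1. Every such match is a description of the reference transcript, and binding was not measured.

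Per length of transcript, Zfp36l2 was the most abundant of the 10 mRNAs and Elavl1 the least in all 8 groups. Zfp36l2 group means ran from 34.8 to 61.2 CPM per kb, while Zfp36, the founding member of the family, ran from 5.25 to 9.13 CPM per kb. Zc3h12a came next after Zfp36l2 in the 4 inflamed groups, with group means between 30.6 and 37.6 CPM per kb, and lower in the order, at ranks 3 to 5, in the 4 non-inflamed groups, with means between 13.2 and 19.7 CPM per kb. Zfp36l1 (17.7 to 26.7), Khsrp (14.7 to 22.002) and Hnrnpd (14.0 to 19.9 CPM per kb) formed the middle of the order. Tial1 followed at 8.08 to 11.2 CPM per kb, then Rc3h1 at 4.13 to 5.75 and Tia1 at 3.65 to 6.41. Neighbours in this order mostly overlapped in mean ± SD. Zfp36l2 stood clear of the gene ranked next in 6 of 8 groups, the exceptions being the inflamed vehicle groups of both models, and Elavl1 stood clear of the gene ranked above it in all 8.

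Elavl1 was measured at 0.426 to 6.64 CPM, from 3 to 126 counts a library, the lowest counts of the 10. HuR is a widely expressed protein, and no source used here gives the transcript models behind the deposited counts, so this low level describes the deposited value only. The levels per kb depend on the transcript whose length is used. Opposite-strand genes overlap Zfp36, Zfp36l1, Zfp36l2, Elavl1, Hnrnpd and Khsrp in the annotation. Same-strand gene models overlap Tia1 (Gm44790) and Rc3h1, and no source used here says how reads were divided between them.

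**Figure D1:**
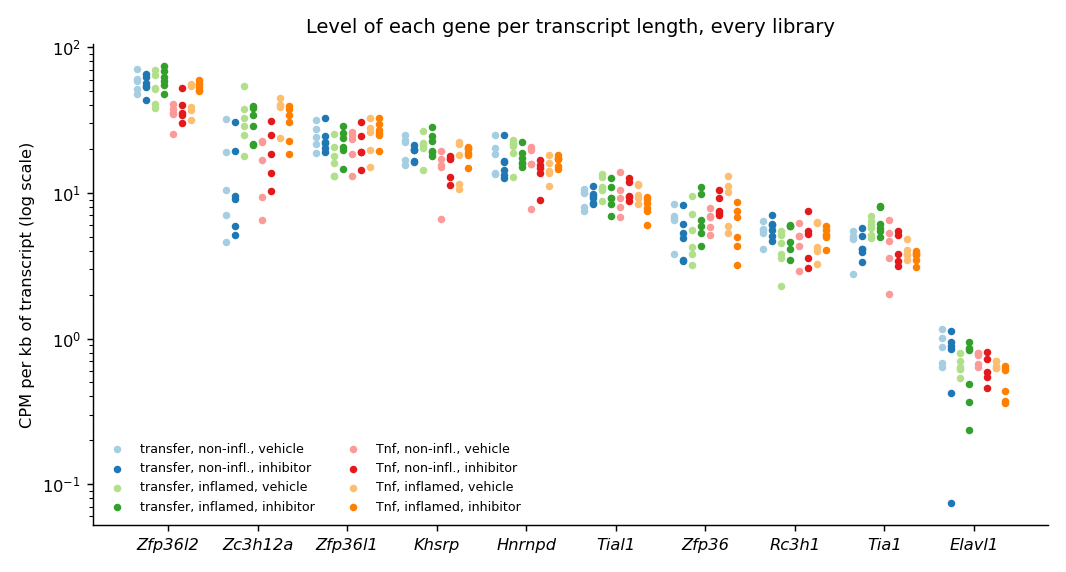
CPM per kb of principal transcript (log scale) for the 10 genes, with 1 point per library and 1 colour per group. Zfp36l2 had the highest group mean and Elavl1 the lowest in every group.

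Zc3h12a, which encodes the endonuclease Regnase-1 (chr4:125118423-125127840, minus strand), was the member that differed with inflammation in the Tnf model. In Tnf +/+ mice given vehicle it stood at 46.5, 18.0, 61.7, 62.8 and 25.7 CPM. In Tnf ΔARE/+ mice given vehicle it stood at 110.5, 124.0, 110.4, 107.5 and 66.0 CPM. Every inflamed library lay above every non-inflamed library, and the lowest inflamed value was the single one from batch 3. The log2 fold change was 1.36 ± 0.33 (SE), with an adjusted p of 0.00601 by edgeR's quasi-likelihood test, Benjamini-Hochberg adjusted over the 14370 genes. Within batch 2 alone it was 1.40, with an adjusted p of 0.0248.

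Across the 10 members this comparison called 1 gene (0.05 adjusted threshold), against 15.9% of the genes tested (8.66% higher and 7.27% lower), and groups failed to overlap for 1 of 10 members, against 9.65% of all genes. The members' median log2 fold change was 0.09, beside −0.02 for all genes tested. Zfp36 was at 0.33 ± 0.24 and Zfp36l2 at 0.27 ± 0.17 (adjusted p of 0.429 and 0.340), and the other 7 members lay between −0.14 and 0.19. Markers of myeloid cells moved in the same direction. Neutrophil markers (8 of 8 listed measured) summed to 129 to 309 CPM in the inflamed vehicle group and to 5.02 to 10.01 CPM in the non-inflamed group, where 1 of them was at 0 in every library. Monocyte and macrophage markers summed to 1837 to 4276 CPM and to 216 to 507 CPM, with none of 8 at 0 throughout. Their part in the Zc3h12a difference was not tested, and in bulk tissue more cells of a type and more RNA per cell cannot be told apart.

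In transfer colitis the Zc3h12a difference did not pass the test. The non-inflamed vehicle libraries stood at 12.7, 28.8, 52.6, 19.4 and 88.9 CPM, and the inflamed vehicle libraries at a lowest of 49.7, a median of 84.3 and a highest of 149.8 CPM. Non-inflamed library 7, at 88.9 CPM, lay within the inflamed range, so the groups overlapped. Non-inflamed library 4 did so only through inflamed library 3, the one with small intestinal transcripts, at 49.7 CPM. The next lowest inflamed library stood at 69.0 CPM. The change was 1.06 ± 0.51 (log2) with an adjusted p of 0.167 (edgeR), and 1.17 with an adjusted p of 0.115 without inflamed library 3. Without non-inflamed library 7 it was 2.02 with an adjusted p of 0.0162, so that 1 library decided the call. In batch 4 alone, with 5 inflamed and 2 non-inflamed libraries, it was 0.67 with an adjusted p of 0.667. Without the 14 transfer libraries holding 100 CPM or more of pancreatic markers and library 3 it was −0.19 with an adjusted p of 0.866, but that fit leaves 1 non-inflamed vehicle library, library 7 at 88.9 CPM, which is assumed to vary like the other groups. With the limit at 1000 CPM, chosen after seeing the data, the change was 1.16 with an adjusted p of 0.212. Neutrophil markers summed to 56.4 to 1772 CPM in the inflamed and 2.61 to 54.4 CPM in the non-inflamed vehicle group. Monocyte and macrophage markers summed to 269 to 4183 and to 173 to 507 CPM. The 269 CPM was that of inflamed library 3, and the next lowest inflamed sum was 1180 CPM. The part of these cells was not tested. The difference between the models was −0.31 ± 0.61, with a 95% interval from −1.55 to 0.93 and an adjusted p of 0.840.

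None of the 10 members passed in this transfer comparison by edgeR or by DESeq2, and none had an unadjusted p under 0.05, whereas 14.2% of 15317 genes were called (7.9% higher and 6.28% lower). No member's groups stood apart without overlap, against 6.63% of genes. The nearest besides Zc3h12a were Rc3h1, which encodes the deadenylase recruiter Roquin-1, at −0.40 ± 0.19 (adjusted p of 0.170), and the translational repressor Tia1 at 0.35 ± 0.18 (adjusted p of 0.194). The medians were 0.14 for the members and 0.05 for all genes tested.

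**Figure D2:**
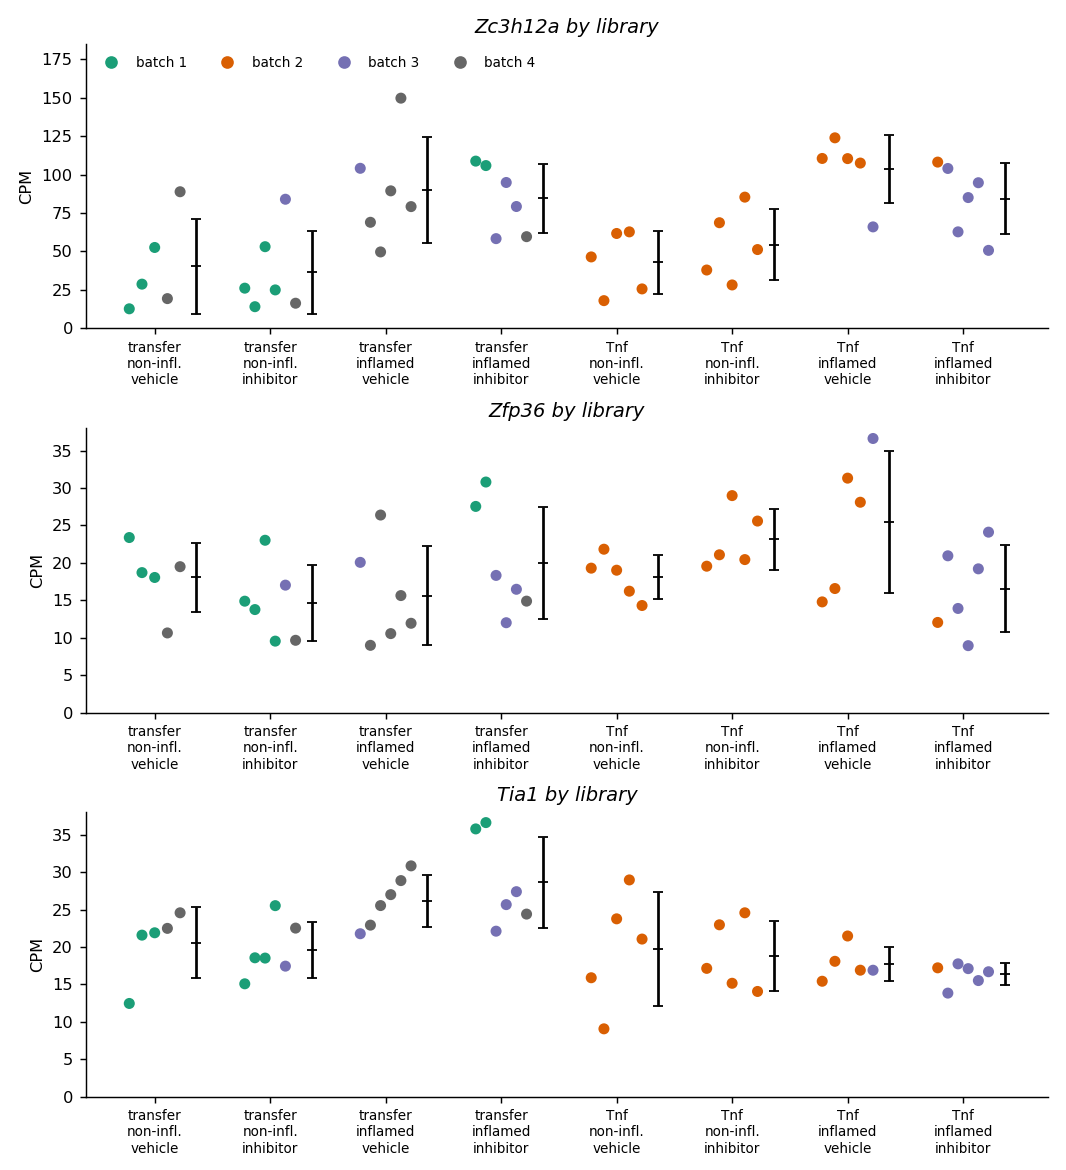
CPM of Zc3h12a, Zfp36 and Tia1 in each of the 44 libraries by group, coloured by batch, with the mean and SD of each group beside its points. Zc3h12a was higher in all 5 inflamed vehicle libraries of the Tnf model than in any non-inflamed vehicle library, and Zfp36 in inflamed Tnf mice was lower with inhibitor than with vehicle within each batch while the pooled groups overlapped.

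Under inhibitor, the inflamed and non-inflamed transfer groups differed in Tia1, whose protein represses translation of Tnf mRNA. It stood at a lowest of 15.1, a median of 18.5 and a highest of 25.5 CPM without inflammation, and at 22.1, 26.5 and 36.6 CPM with it. The groups overlapped between 22.1 and 25.5 CPM, and the highest values were the 2 inflamed libraries of batch 1, at 35.8 and 36.6 CPM. The log2 fold change was 0.63 ± 0.16 with an adjusted p of 0.00915 (edgeR), and in batch 1 alone it was 0.90 with an adjusted p of 0.0223. Leaving out inflamed inhibitor library 1 or library 2 gave 0.53 and 0.54, with adjusted p-values of 0.0511 and 0.0603. Without the libraries holding 100 CPM or more of pancreatic markers and library 3 it was 0.56 with an adjusted p of 1.000, in a fit that leaves 1 non-inflamed inhibitor library, library 5, and so says little about the call. Under vehicle the Tia1 change was 0.35 ± 0.18 and did not pass. The change under inhibitor minus that under vehicle was 0.28 ± 0.24, with a 95% interval from −0.21 to 0.77. The Tia1 difference was thus not shown to be particular to the inhibitor groups. Markers of T cells, which are known to express Tia1, summed to 121 to 372 CPM in the inflamed and to 3.24 to 24.1 CPM in the non-inflamed inhibitor group, with none of 8 at 0 throughout, and their part was not tested.

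In that comparison 1 of 10 members was called, against 25% of 15317 genes (14% higher and 11% lower), and no member's groups stood apart without overlap, against 13% of genes. Zc3h12a stood at a lowest of 14.1, a median of 25.6 and a highest of 84.0 CPM without inflammation and at 58.4, 87.1 and 108.8 CPM with it. Its log2 fold change was 1.18 ± 0.45 with an adjusted p of 0.0595. It passed with DESeq2 (1.16, adjusted p of 0.0444) without the batch term (1.22, 0.0472) and in batch 1 alone (1.86, 0.0259). It also passed without non-inflamed inhibitor library 5 (1.68, adjusted p of 0.0177), the only value of its group above 53.1 CPM, or library 3 (1.38, 0.0428). Without the libraries holding 100 CPM or more of pancreatic markers and library 3 of the inflamed vehicle group it was 0.18 (adjusted p of 1.000), but the 1 non-inflamed inhibitor library left there is the same library 5, at 84.0 CPM. With the limit at 1000 CPM it was 1.59 (0.0442). Zfp36 had a log2 fold change of 0.54 ± 0.27 with an adjusted p of 0.134.

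In the Tnf model under inhibitor none of 10 members passed by edgeR, 2 had an unadjusted p under 0.05, and 1 passed by DESeq2, while edgeR called 12.5% of 14370 genes (7.91% higher and 4.56% lower). No member's groups stood apart without overlap, against 22.6% of genes. The member nearest the threshold was Zfp36, encoding tristetraprolin (chr7:28376784-28380253, minus strand). It stood at 19.6, 21.1, 29.0, 20.4 and 25.6 CPM in Tnf +/+ mice and at a lowest of 8.94, a median of 16.6 and a highest of 24.1 CPM in Tnf ΔARE/+ mice, with overlapping groups. The log2 fold change was −1.01 ± 0.33 with an adjusted p of 0.0537 by edgeR and of 0.0319 by DESeq2. All non-inflamed inhibitor libraries were of batch 2 and 5 of 6 inflamed ones of batch 3, so that the value rests on the batch term: without it the change was −0.49 (adjusted p of 0.132). The call was gained without non-inflamed inhibitor library 1 (−1.07, adjusted p of 0.0491) and without inflamed inhibitor library 4 (−0.94, 0.0458) or 6 (−1.07, 0.0393). Zc3h12a was at 1.13 ± 0.44 with an adjusted p of 0.111.

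**Figure D3:**
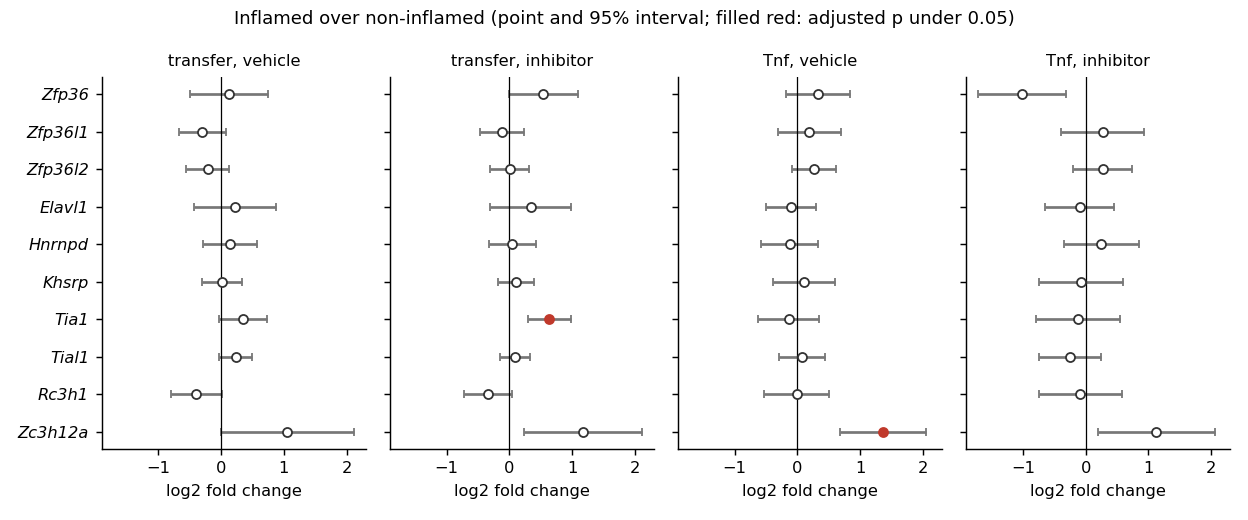
Log2 fold changes of the 10 genes, inflamed over non-inflamed, with 95% intervals, in 4 comparisons (2 models, vehicle and inhibitor). Filled points passed an adjusted p of 0.05: Tia1 in the transfer model under inhibitor and Zc3h12a in the Tnf model under vehicle, and Zc3h12a lay above 1 in all 4 panels.

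The study's question about the drug was whether blocking MK2 changes gene expression in inflamed and in non-inflamed gut. None of the 10 members passed the test in any of the 4 comparisons of inhibitor with vehicle, by edgeR or DESeq2. The background was as low: edgeR called 0.00653% of genes (1 of 15317) in inflamed transfer mice and 0% in each other comparison, with 530, 222, 216 and 411 genes at an unadjusted p under 0.05 in inflamed transfer, non-inflamed transfer, inflamed Tnf and non-inflamed Tnf mice. DESeq2 called 5, 8, 1 and 16 genes in the same order. Inhibitor and vehicle groups did not overlap for 0.137%, 0.0783%, 1.33% and 0.369% of genes in that order, and for no member. The members had no unadjusted p under 0.05 in 3 of the 4 comparisons and 1, that of Zfp36, in inflamed Tnf mice. Their median log2 fold changes were −0.000785 in inflamed transfer, −0.18 in non-inflamed transfer, −0.03 in inflamed Tnf and 0.07 in non-inflamed Tnf mice.

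Zfp36 in inflamed Tnf mice had the largest estimate. Given vehicle it stood at 14.8, 16.6, 31.3 and 28.1 CPM in batch 2 and at 36.6 CPM in batch 3. Given inhibitor it stood at 12.0 CPM in batch 2 and at 20.9, 13.9, 8.94, 19.2 and 24.1 CPM in batch 3. Within each batch every inhibitor library lay below every vehicle library, but each batch held a single library of 1 of the groups, and the pooled groups overlapped. The share of all genes separated in this way within batches was not computed, so nothing is drawn from this order. The fitted log2 fold change was −0.998 ± 0.288, with a 95% interval from −1.60 to −0.40 and an adjusted p of 0.989 (edgeR). Without the batch term it was −0.63, over 1.5 times smaller in size. Leaving out each library of the 2 groups in turn kept it between −1.08 and −0.91, and without the vehicle library of batch 3 it was −0.91 on a comparison that batch 2 alone then carried.

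In non-inflamed Tnf mice Zfp36 had an estimate of the opposite sign. The vehicle libraries stood at 19.3, 21.8, 19.0, 16.2 and 14.3 CPM and the inhibitor libraries at 19.6 to 29.0 CPM, all 10 in batch 2. The estimate was 0.35 ± 0.24 (log2), with an interval from −0.14 to 0.84 and an adjusted p of 1.000 after rounding. The inhibitor's effect in inflamed minus that in non-inflamed Tnf mice was −1.35 ± 0.37 for Zfp36, with an interval from −2.13 to −0.57. It did not pass over all genes (adjusted p of 1.000 after rounding, edgeR), where 252 of 14370 genes had an unadjusted p under 0.05 and 0% were called. This difference also rests on the batch term, since 5 of 6 inflamed inhibitor libraries were of batch 3. Under the 5 alternatives that kept all libraries it lay between −1.36 and −0.98. In the transfer model Zfp36 changed by 0.02 ± 0.30 in inflamed and −0.39 ± 0.28 in non-inflamed mice, with intervals from −0.61 to 0.65 and from −0.97 to 0.19.

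For the other 9 members the inhibitor estimates in inflamed mice lay between −0.32 (Hnrnpd) and 0.27 (Tia1) in the transfer model and between −0.22 and 0.18 in the Tnf model. The intervals set what these data can tell. For Zfp36l2 in inflamed transfer mice the interval ran from −0.21 to 0.47, and for Tial1 from −0.29 to 0.24. For Zc3h12a it ran from −1.30 to 0.95 in inflamed transfer and from −0.74 to 0.94 in inflamed Tnf mice. MK2 acts on tristetraprolin by phosphorylation, which mRNA counts do not measure.

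**Figure D4:**
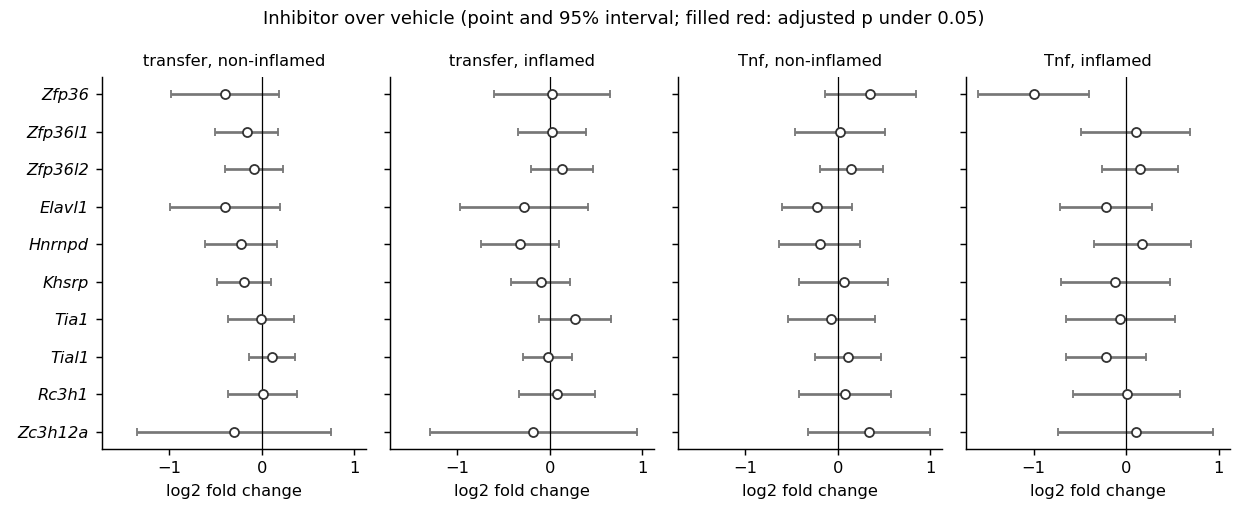
Log2 fold changes of the 10 genes, inhibitor over vehicle, with 95% intervals, in the non-inflamed and inflamed groups of each model. No point passed an adjusted p of 0.05, and Zfp36 in inflamed Tnf mice, at −0.998, lay farthest from 0.

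Inflammation effects in the transfer model minus those in the Tnf model, under vehicle, did not pass for any of the 10 members by edgeR or DESeq2, against 5.27% of 15565 genes called (3.37% higher and 1.91% lower). One member, Zfp36l2, had an unadjusted p under 0.05, with a difference of −0.48 ± 0.24 and an adjusted p of 0.264. Its vehicle levels were 169 to 250 CPM without and 134 to 248 CPM with inflammation in the transfer model, and 90.2 to 143.5 and 111 to 199 CPM in the Tnf model. The colon and the small intestine are compared here as well as the models, and the 2 cannot be told apart.

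Relations between members across libraries were examined pair by pair. Of 45 pairs, correlated in log2 CPM after removing group and batch, 6 passed in the transfer model (23 libraries) and 20 in the Tnf model (21 libraries), with permutation p-values from 100000 resamples, two-sided, adjusted over 90 relations. The smallest p these resamples can give is 1e-05 before adjustment. Removing group and batch leaves fewer independent values than libraries, which the resamples do not take into account. These p-values are therefore somewhat too small, and calls near the threshold are uncertain, as are the counts of pairs. The 5 pairs that passed in both models had the same sign in both, positive for 2 and negative for 3. The share over all pairs of genes was not computed. Zfp36l1 and Zfp36l2, paralogs with overlapping roles in lymphocyte and epithelial mRNA decay, varied together: Pearson's r was 0.78 and Spearman's rho 0.78 in the transfer model (adjusted permutation p of 0.000225 and 0.00126), and r was 0.86 and rho 0.78 in the Tnf model (adjusted p of 0.000225 and 0.00126). Without the 2 libraries farthest from the median of Zfp36l1, r was 0.80 and 0.79.

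Khsrp and Rc3h1 were also positively related, with r of 0.75 and rho of 0.63 in the transfer model (adjusted permutation p of 0.000818 and 0.00805) and r of 0.82 and rho of 0.76 in the Tnf model (0.000225 and 0.00141). Without the 2 farthest libraries r was 0.52 and 0.76. Tial1 ran against Zfp36l2, with r of −0.66 and rho of −0.64 in the transfer model (adjusted permutation p of 0.0032 and 0.00805) and r of −0.68 and rho of −0.71 in the Tnf model (0.0032 and 0.00367), and r of −0.56 and −0.70 without the 2 farthest. Tial1 also ran against Zfp36l1 (r of −0.63 and −0.69) and against Rc3h1 (r of −0.58 and −0.54). For Tial1 and Rc3h1 the adjusted permutation p of r was 0.0138 and 0.0406, the second near the threshold. Spearman's rho of that pair did not pass (adjusted permutation p of 0.0869 and 0.0641). Libraries share tissue makeup, depth and RNA quality across genes, and the part of these in the relations was not tested.

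**Figure D5:**
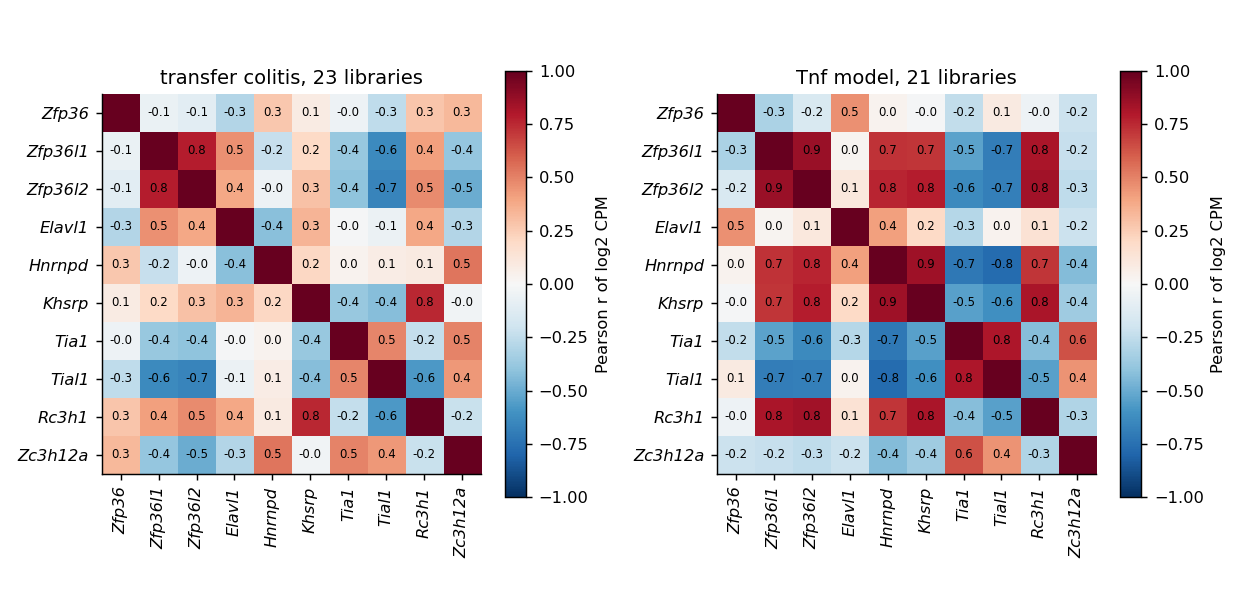
Pearson's r of log2 CPM between the 10 genes across libraries after removal of group and batch, in the transfer model (23 libraries) and the Tnf model (21 libraries). Zfp36l1 and Zfp36l2 were positively related in both models, Tial1 was negatively related to both of them, and no r of Zfp36 with another of the 10 genes passed in either model.

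Genes whose pattern across libraries was most like that of 4 members were ranked by the smaller of the r values in the 2 models, over 13925 genes and with group and batch removed. For Zc3h12a the nearest gene was Nfkbiz, which encodes the NF-kappaB cofactor IκBζ and is a described Regnase-1 target, with r of 0.94 in the transfer and 0.93 in the Tnf model. Serpina3f (0.88 and 0.91), Iigp1 (0.85 and 0.86), Tgtp1 (0.85 and 0.87) and Igtp (0.85 and 0.88) came next, of which Iigp1, Tgtp1 and Igtp encode interferon-inducible GTPases. For Zfp36l1 the nearest were Tshz3, Adgrl1, Ripor1, Tacc1 and Crtc3, with the smaller r between 0.81 and 0.85. For Zfp36l2 they were Tshz3, Adgrg1, Irf2bpl, Hunk and Zfp553, between 0.82 and 0.84. For Zfp36 the nearest were Ms4a18, Gpd1, Armc5, Hsd17b13 and Lrrc28, with the smaller r no higher than 0.59. Without the 2 libraries farthest from the median of Zfp36, their r ran from 0.30 (Hsd17b13) to 0.57 (Ms4a18) in the transfer model. In the Tnf model it then ran from 0.41 (Hsd17b13) to 0.57 (Lrrc28).

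Among 24 further AU-rich and 3′ UTR binding proteins, the gene called most often was Arid5a, whose product stabilises Il6 mRNA against Regnase-1. Its mean rose from 6.57 ± 3.79 (SD, n = 5) to 21.8 ± 7.79 CPM (n = 6) with inflammation in transfer mice given vehicle, a log2 fold change of 1.68 ± 0.38 with an adjusted p of 0.00693 (edgeR). In Tnf mice given vehicle the change was 1.08 ± 0.23 with an adjusted p of 0.00254, and under inhibitor it was 1.78 ± 0.34 in transfer (adjusted p of 0.000925) and 0.94 ± 0.31 in Tnf mice (0.0510). In transfer mice given vehicle 1 of 22 tested rose and 2 fell, namely the neuronal Elavl3 (−1.86 ± 0.48) and Elavl4 (−1.45 ± 0.47), with adjusted p-values of 0.0129 and 0.0455, beside 7.9% of all genes higher and 6.28% lower. Without library 3 of the inflamed vehicle group, and without the 4 libraries of high pancreatic markers as well, 1 rose and 1 fell. The median was 0.18. In Tnf mice given vehicle 1 of 21 rose and none fell, beside 8.66% of all genes higher and 7.27% lower, with a median of 0.01.

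Of the machinery that the members recruit, 2 of 38 tested genes passed in transfer and 2 in Tnf mice given vehicle, beside 14.2% and 15.9% of all genes, and 4 and 0 under inhibitor, beside 25% and 12.5%. Among these 38 genes of deadenylation, decapping and the exosome, the decapping activator Dcp1b fell (log2 fold change −0.72 ± 0.21, adjusted p of 0.0259) and the exosome gene Exosc9 rose (0.55 ± 0.17, 0.0382) in transfer mice given vehicle. In Tnf mice given vehicle Btg1, which stimulates deadenylation, rose (0.57 ± 0.14, 0.00656) and Cnot9, a CCR4-NOT subunit, fell (−0.34 ± 0.10, 0.0314). Under inhibitor, 3 exosome genes (Exosc1, Exosc8 and Exosc9) rose and Cnot6l, a deadenylase, fell in transfer mice. That count was 3 higher and 3 lower without library 3 of the inflamed vehicle group, and 3 higher and 0 lower without the 4 libraries of high pancreatic markers as well. None of the 38 passed in Tnf mice by edgeR, with 4 at an unadjusted p under 0.05. Median log2 fold changes of this list lay between −0.05 and 0.04 in those 4 comparisons. Pan2 was listed at 0 in 28 of 44 libraries, so no fold change is given for it. Without library 3 the count for transfer mice given vehicle was 1 higher and 4 lower, and without the 4 libraries of high pancreatic markers as well it was 0 higher and 1 lower.

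Of 18 described targets of the members tested in transfer mice given vehicle, 12 rose and none fell, beside 7.9% and 6.28% of all genes, and their median log2 fold change was 2.17. The largest evidence was for Ccl3 (3.65 ± 0.65, adjusted p of 0.00196), Plaur (2.75 ± 0.57, 0.00446), Tnfrsf4 (2.94 ± 0.70, 0.00879) and Icos (3.08 ± 0.73, 0.00921). Without library 3 and the 4 libraries with over 1000 CPM of pancreatic markers, 9 of 19 rose. Under inhibitor 13 of 18 rose and 0 fell, beside 14% and 11% of all genes, with a median of 2.20. Without those libraries 15 of 19 rose. The share over all genes is not given for fits that leave out libraries, here or for the lists above. In Tnf mice given vehicle 9 of 16 rose and 1, Vegfa, fell (−0.78 ± 0.20, adjusted p of 0.00960 by edgeR), beside 8.66% and 7.27% of all genes. The median was 1.35. Under inhibitor 8 of 16 rose and 1, Vegfa, fell in Tnf mice, beside 7.91% and 4.56% of all genes. Those with the smallest p in Tnf mice given vehicle were Cxcl1 (5.50 ± 0.57, adjusted p of 6.64e-08), Tnf, Ccl2 (4.69 ± 0.47, 8.08e-07) and Cxcl2 (5.27 ± 0.66, 1.66e-06), which recruit monocytes and neutrophils apart from the cytokine Tnf. Markers of myeloid cells moved in the same direction in both models, those of T cells in the transfer model, and several targets, Icos, Tnfrsf4 and Ccl3 among them, are themselves leukocyte genes. In transfer mice given vehicle the markers that rose were 7 of 8 for monocytes and macrophages, 8 of 8 for neutrophils and 7 of 8 for T cells. The T cell markers summed to 52.6 to 245 CPM with and 5.47 to 58.9 CPM without inflammation. The 52.6 CPM was that of inflamed library 3, and the next lowest inflamed sum was 103.6 CPM. In Tnf mice given vehicle the markers that rose were, in the same order, 8 of 8, 6 of 6 tested and 0 of 8 by edgeR (1 T cell marker at an unadjusted p under 0.05). The part of these cells in the rise of the targets was not tested. The list was chosen with results of these data known and its counts are no independent evidence of direction. None of the targets passed in any inhibitor comparison by edgeR, and none had an unadjusted p under 0.05.

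Tnf itself, whose mRNA is the best studied substrate of tristetraprolin, stood at a mean of 1.10 ± 0.533 CPM (SD, n = 5) in Tnf +/+ and 35.8 ± 15.2 CPM (n = 5) in Tnf ΔARE/+ mice given vehicle. Its log2 fold change was 5.06 ± 0.41 with an adjusted p of 1.16e-07 (edgeR). Counts were not split by allele. With inhibitor the mean in Tnf ΔARE/+ mice was 24.1 ± 7.13 CPM (n = 6), all but 1 in batch 3, and the inhibitor effect fitted with the batch term was 0.06 ± 0.42 with an adjusted p of 0.992. In transfer mice given vehicle Tnf was higher by 2.53 ± 0.87 with inflammation, with an adjusted p of 0.0568.

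The upstream kinase gene Mapkapk2, which encodes the drug's target MK2, rose with inflammation in all 4 comparisons. In vehicle groups the log2 fold change was 0.46 ± 0.12 in transfer mice (adjusted p of 0.0147) and 0.35 ± 0.11 in Tnf mice (0.0365), and under inhibitor it was 0.37 ± 0.10 (0.0154) and 0.52 ± 0.16 (0.0332). Mapkapk3, encoding the related MK3, rose by 0.64 ± 0.16 in Tnf mice given vehicle (adjusted p of 0.00719), and Mapk14, encoding p38α, did not pass in any comparison. Inhibitor effects on Mapkapk2 lay between −0.04 and 0.19 and did not pass. Immediate early genes, transcribed within minutes of stimulation like Zfp36, included Egr2, which rose in all 4 inflammation comparisons by 2.07 to 3.31 on the log2 scale. Egr1 (1.19 ± 0.29), Dusp1 (0.97 ± 0.26) and Nr4a1 (1.48 ± 0.49) rose in Tnf mice given vehicle as well. There 4 of 11 tested rose, beside 8.66% of all genes, with a median of 0.35, and Zfp36 was at 0.33 ± 0.24 (adjusted p of 0.429, edgeR). In transfer mice 1 of 11 rose given vehicle and 2 under inhibitor, beside 7.9% and 14%, and in Tnf mice under inhibitor 2 did, beside 7.91%. Without library 3 of the inflamed vehicle group the transfer counts were 2 and 2, and without the 4 libraries of high pancreatic markers as well 1 and 1.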

How the data were processed

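The authors deposited estimated counts per gene from a directional poly-A kit, per the labels' protocols. Salmon 0.14.1 and DESeq2 appear, without their roles, in the submitters' processing notes, with the builds mm10 and GRCm38. No source used here gives the annotation or the strand setting. The deposited normalized tables were not used. The deposited estimated counts are whole numbers. Ensembl IDs were paired with symbols for 29395 of 29720 genes, and positions come from GENCODE M21. Genes passing filterByExpr (minimum count 10) were scaled by TMM and fitted per model with edgeR 4.0.16 (R 4.3.3), robust quasi-likelihood, group and batch terms, with p-values adjusted over all genes tested and a threshold of 0.05. A joint fit gave the difference between models. CPM use the TMM-scaled totals. The fit was tested on simulated counts. Alternatives were DESeq2 1.42.0, RLE scaling, no count filter, no batch term, single batches, the replicate block, and fits without single libraries or without libraries with transcripts of other organs. The members always, and up to 4 genes with the smallest p per other list and comparison among those that passed, are named. The members and lists were chosen with earlier results of these data known. No 2 libraries agreed within sampling noise.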

Additional observations from a re-analysis of the deposited data

Results flagged for a closer look

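Of 80 combinations of gene and group examined, 3 held a library whose gap to the nearest other was larger than Dixon's 95% limit for the group's range, and chance alone gives about 1 in 20. Hnrnpd in the non-inflamed inhibitor library 5 of the transfer model stood at 171.5 CPM, and the next highest of its group at 112.4 CPM. Tia1 in the non-inflamed vehicle library 1 of the transfer model stood at 12.5 CPM, and the next lowest at 21.6 CPM. Zc3h12a in the inflamed vehicle library 5 of the Tnf model stood at 66.0 CPM, and the next lowest at 107.5 CPM; that library was the only one of its group in batch 3.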

How the results depend on the processing

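Of 2310 member fold changes under alternatives, 2285 stayed on the same side of the threshold, 3 lost and 22 gained the call, and none reversed with a call; 206 changed sign where neither value passed. The Zc3h12a call in Tnf mice given vehicle held in every alternative, between 1.17 and 1.55. Members called in transfer mice under inhibitor, 1, were 2 with DESeq2, without the batch term, in batch 1 alone and without the libraries with small intestinal or very high pancreatic transcripts (chosen after seeing the data), 3 with the replicate block and 0 without those with 100 CPM of pancreatic markers, a fit that leaves 1 library in each non-inflamed transfer group. In Tnf mice under inhibitor, 0, they were 1 with DESeq2 (Zfp36) and without the batch term (Zfp36l2). The replicate block gave 5 in transfer mice given vehicle, against 0 without it, and 2 for the difference between models. Same-numbered libraries correlated above 0.1 in every pair of no comparison (at most 3 of 4 pairs), so the numbers were not taken as pairs. Leaving out single libraries gave 0 to 1 members in transfer and 1 to 1 in Tnf mice given vehicle, 0 to 3 in transfer and 0 to 1 in Tnf mice under inhibitor, and 0 in all other comparisons. All genes called in transfer mice given vehicle ranged from 685 to 3151 without single libraries, were 3399 without the batch term, 6130 with the block and 0 in batch 4 alone or without the libraries with 100 CPM of pancreatic markers, against 2172. Over all alternatives they ranged from 1310 to 2697 in Tnf mice given vehicle (2288), from 0 to 6320 in transfer (3824) and from 453 to 4485 in Tnf mice under inhibitor (1791), and from 31 to 3395 for the difference between models (821). Depth limits Elavl1, at 3 counts in 1 library.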
